A study of Homo sapiens with 12 samples.

Results

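The replication-dependent histone genes were followed in H69, a human cholangiocyte (bile duct epithelial) line from normal liver, immortalised with a viral large T antigen. Members were chosen by symbol: H1-1 to H1-5, or H2AC, H2BC, H3C or H4C followed by a number, without pseudogenes, and with at least 10 counts in at least 3 libraries. Of 68 gene IDs with such a symbol in a table of 62703, 45 met the minimum: 4 of 5 for the linker histone H1, 10 of 17 for H2A, 15 of 18 for H2B, 7 of 13 for H3 and 9 of 15 for H4. The 12 RNA sequencing libraries fall into 4 groups of 3: TGFβ (10 ng/mL) with Aramchol (30 µM), TGFβ alone, Aramchol alone and vehicle. The labels give the Aramchol dose once for the series, and it was taken to hold in both Aramchol groups. All groups were kept without serum for 6 h and then treated overnight in serum-free medium. TGFβ is a cytokine known for driving fibrosis, and Aramchol, made by joining a bile acid to a long-chain fatty acid, inhibits the fat-desaturating enzyme SCD1. All libraries are of 1 immortalised line, and large T antigen itself acts on the cell cycle.

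Cells make most of their core and linker histones in S phase, when new DNA has to be packed into nucleosomes. The genes lie in clusters of near-identical copies, are switched on together through the coactivator NPAT, and give mRNAs without introns that end at a stem-loop in place of a poly(A) tail. The stem-loop binding protein SLBP carries these mRNAs through processing, translation and decay, and some copies are also known to give longer, polyadenylated transcripts.

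The defining 3′ element is shown for 6 members, because the annotated transcripts differ in how far they run past it. Each line is written 5′ to 3′ from a GENCODE v29 transcript (GRCh38), with the 16 bases of the stem-loop in capitals.
H2AC6: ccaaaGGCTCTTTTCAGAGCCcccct
H2BC21: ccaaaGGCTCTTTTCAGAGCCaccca
H2AC25: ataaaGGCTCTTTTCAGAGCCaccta
H2BC5: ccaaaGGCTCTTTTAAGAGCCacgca
H4C8: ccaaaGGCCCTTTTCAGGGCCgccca
H4C11: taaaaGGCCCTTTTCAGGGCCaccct

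A stem-loop (6 paired bases starting GG around a 4-base loop starting TT) was found in transcripts of 23 of the 43 members that GENCODE v29 holds. The form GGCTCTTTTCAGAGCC occurred in 4 H2A, 8 H2B and 1 H3 genes, and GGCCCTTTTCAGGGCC in 4 H4 genes. With another base in the loop, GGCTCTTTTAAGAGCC occurred in 3 H2B genes and 1 H3 gene and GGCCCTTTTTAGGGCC in 2 H4 genes. Among the annotated transcripts that hold it, the one that runs furthest goes 1729 bases past it in H2BC21, 1655 in H4C8, 1128 in H2AC6, 390 in H2AC25, 39 in H2BC5 and 6 in H4C11. H2BC5 also has a longer transcript, of 789 bases, in which no stem-loop was found. No stem-loop was found in the v29 transcripts of H2BC11 and H3C6, or of H2BC12 and H1-2, and many v29 entries end with the coding sequence. In the deposited table itself, 13 members have an exon length of over 1000 bases and 32 have 1000 bases or fewer. These are called long and short members below. GENCODE v29 lengths differ from those of the table for some members, so the split rests on the table alone.

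**Figure D1:**
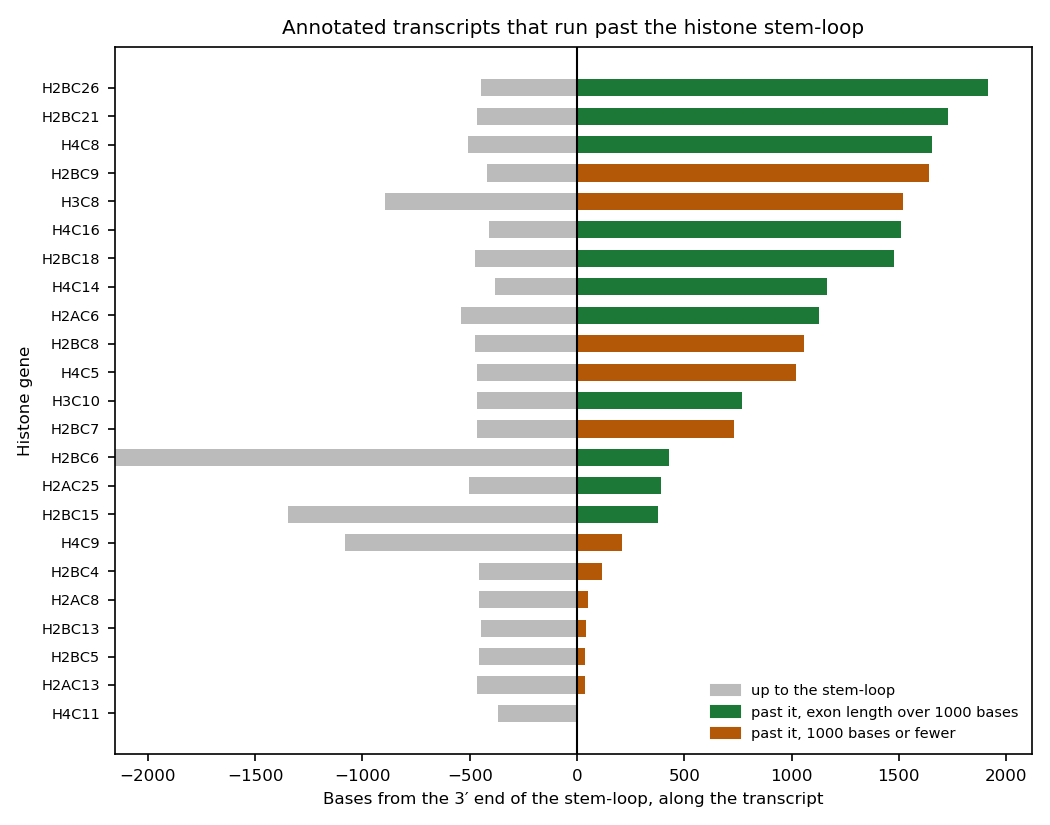
Length of the GENCODE v29 transcript that runs furthest past the stem-loop, for the 23 members in which one was found (x axis, bases from the 3′ end of the stem-loop; grey, up to it; green, past it in long members; orange, past it in short members). H2BC26, H2BC21 and H4C8 run furthest, 1917, 1729 and 1655 bases past it, and H4C11 ends 6 bases after it.

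Promoters are shown for 4 H2B members because H2A and H2B copies often lie head to head and are read in opposite directions from 1 shared stretch. The windows come from RefSeq (GRCh38.p14), are written on the gene's own minus strand and end just before the transcription start. Capitals mark the octamer ATTTGCAT, the motif bound by Oct-1 (POU2F1), and the TATA box TATAAA. The H2BC11 window is chr6:27132796-27132854, the H2BC12 window chr6:27146859-27146916, the H2BC21 window chr1:149886683-149886740 and the H2BC8 window chr6:26216689-26216748.
H2BC11: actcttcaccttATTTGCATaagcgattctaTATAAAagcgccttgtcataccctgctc
H2BC12: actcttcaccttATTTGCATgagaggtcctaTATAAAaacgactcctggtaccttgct
H2BC21: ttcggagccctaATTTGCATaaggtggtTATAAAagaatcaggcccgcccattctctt
H2BC8: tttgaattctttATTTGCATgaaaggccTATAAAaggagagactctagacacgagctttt

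RefSeq promoters (250 bases before to 50 after the start) matched 42 members. Searched on both strands, ATTTGCAT was in 11 of 15 H2B and 6 of 9 H2A promoters and in none of the 18 H1, H3 and H4 promoters, which says only that those letters are not in these windows. It was in 1.77% of all 35116 promoters of the table. CCAAT was in 35 of 42 member promoters and 34.6% of all promoters, and TATAAA in 26 of 42 and 11.5%. In 5 head-to-head pairs the same octamer lay in both windows: H2AC11 with H2BC11, H2AC6 with H2BC4, H2AC20 with H2BC21, H2AC8 with H2BC8, and H2AC17 with H2BC17.

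Total counts ran from 52279922 to 70339925 per library, of which the 45 members took 0.00772 to 0.0193%. Neither the selection of poly(A) RNA nor the removal of ribosomal RNA is given in the sources used here, and histone mRNAs without a tail are under-counted where poly(A) RNA is selected. Whether the 3 libraries of a group came from separate cultures is not in the labels. The p-values below therefore rest on library-to-library spread that could be technical. The libraries numbered 3 stand apart in all 4 groups, and what the number shares is not given. Of 10 cholangiocyte markers 8 were tested, and 4 rose and 3 fell with TGFβ against vehicle (edgeR). KRT7, a bile duct keratin, averaged 792 ± 87.1 CPM (read counts brought to a common library size with TMM factors; SD, n = 3) with TGFβ + Aramchol, 938 ± 78.1 with TGFβ, 506 ± 99.3 with Aramchol and 552 ± 241 with vehicle. The markers that fell were KRT19, EPCAM and SOX9, and CFTR stayed under 0.1 CPM in every group mean. The cholangiocyte list summed to 1297 to 1442 CPM in TGFβ + Aramchol, 1472 to 1605 in TGFβ, 814 to 977 in Aramchol and 670 to 1156 in vehicle libraries. The 6 fibroblast markers summed to 263 to 298 CPM in TGFβ + Aramchol, 337 to 391 in TGFβ, 150 to 153 in Aramchol and 136 to 171 in vehicle libraries, and 4 rose and 1 fell with TGFβ against vehicle. The 7 hepatocyte markers summed to 86.3 to 97.1 CPM in TGFβ + Aramchol, 106 to 114 in TGFβ, 74.5 to 84.9 in Aramchol and 68.5 to 90.8 in vehicle libraries, with 2 of the 3 tested higher and 1 lower, and TTR at 0 in all 12 libraries. The 5 leukocyte markers summed to 20.3 to 21.4 CPM in TGFβ + Aramchol, 24.7 to 28.2 in TGFβ, 29.1 to 29.8 in Aramchol and 28.6 to 35.1 in vehicle libraries, with 1 of the 2 tested higher and 1 lower, and CD3E at 0. The 5 endothelial markers summed to 8.27 to 11.1 CPM in TGFβ + Aramchol, 7.27 to 10.1 in TGFβ, 13.9 to 15.0 in Aramchol and 8.57 to 13.5 in vehicle libraries, with 1 higher and 1 lower. The part of these markers in the histone results was not tested.

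Of the 68 gene IDs, 4 had no count in any library and 19 had counts below the minimum. Of the 45 members, 23 reached 10 counts in all 12 libraries. In libraries of all 4 groups 37 members reached 10 counts at least once, 6 did so in 3 groups and 2 in 2 groups. H2AC12 and H2BC3 lay just inside the minimum with 3 such libraries each, and H3C13, H3C7 and H4C1 just outside with 2 each. H2AC12 fell under the filter of the fit, so 44 members were tested. H2AC12, H2BC3, H2BC7, H3C8, H3C12 and H4C11 met the minimum only because vehicle libraries counted toward it. Falls of these members against vehicle are therefore partly set by the rule. Copies too alike to share out reads can lose them, but how such reads were handled is not given. H2AC18 and H2AC19 had 8 and 5 counts in all, H3C14 and H3C15 had 0 each, and H4C14 had 144 against 2 in H4C15. The part of lost reads in these counts was not tested. The exons of 6 members overlap those of another gene ID, among them H4C8, H2BC26 and H2AC17, and without a stated strand setting such reads cannot be assigned with certainty.

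Levels were very uneven. H2BC12 (chr6:27146361-27146855, minus strand) encodes an H2B and stood first per length at 85.9 CPM per kb of exon over the 12 libraries. H1-2 (chr6:26055740-26056470, minus strand), a linker histone gene, followed at 38.6 CPM per kb and H2AC6 (chr6:26124145-26139116, plus strand), an H2A gene, at 10.3. These 3 genes held 67.7% of the summed CPM of the 45 members. By share of the counts, H2B genes held 49.5% of the sum, H1 22.4%, H2A 20.5%, H3 4.42% and H4 3.19%. Among 11 histone variants outside this set, whose mRNAs mostly carry poly(A) tails, MACROH2A2 had 1.98 CPM per kb, H3-3B 81.5 and H2AZ1 115.0. The highest H3 and H4 members per library size were H3C6 and H4C8, and per length these had 0.869 and 0.746 CPM per kb.

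The summed CPM of the 45 members was 127.5, 113.8 and 144.6 in the TGFβ + Aramchol libraries and 82.6, 92.7 and 115.7 in the TGFβ libraries. It was 138.9, 158.0 and 183.0 in the Aramchol libraries and 120.2, 131.6 and 147.8 in the vehicle libraries. In each group library 3 was the highest, and the TGFβ libraries overlapped with those of TGFβ + Aramchol but not with those of Aramchol or vehicle. The long members alone summed to 38.8 ± 1.82 CPM with TGFβ + Aramchol, 25.8 ± 1.56 with TGFβ, 55.6 ± 4.55 with Aramchol and 41.0 ± 4.60 with vehicle (SD, n = 3 each). In that sum all 3 TGFβ libraries lay below all 9 others, and all 3 Aramchol libraries above all others. The short members summed to 89.9 ± 14.8 CPM with TGFβ + Aramchol, 71.2 ± 15.4 with TGFβ, 104.4 ± 18.3 with Aramchol and 92.2 ± 9.31 with vehicle, and there the groups overlapped. No test was made of these sums. In bulk RNA, fewer cells in S phase and less histone mRNA per cell cannot be told apart.

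**Figure D2:**
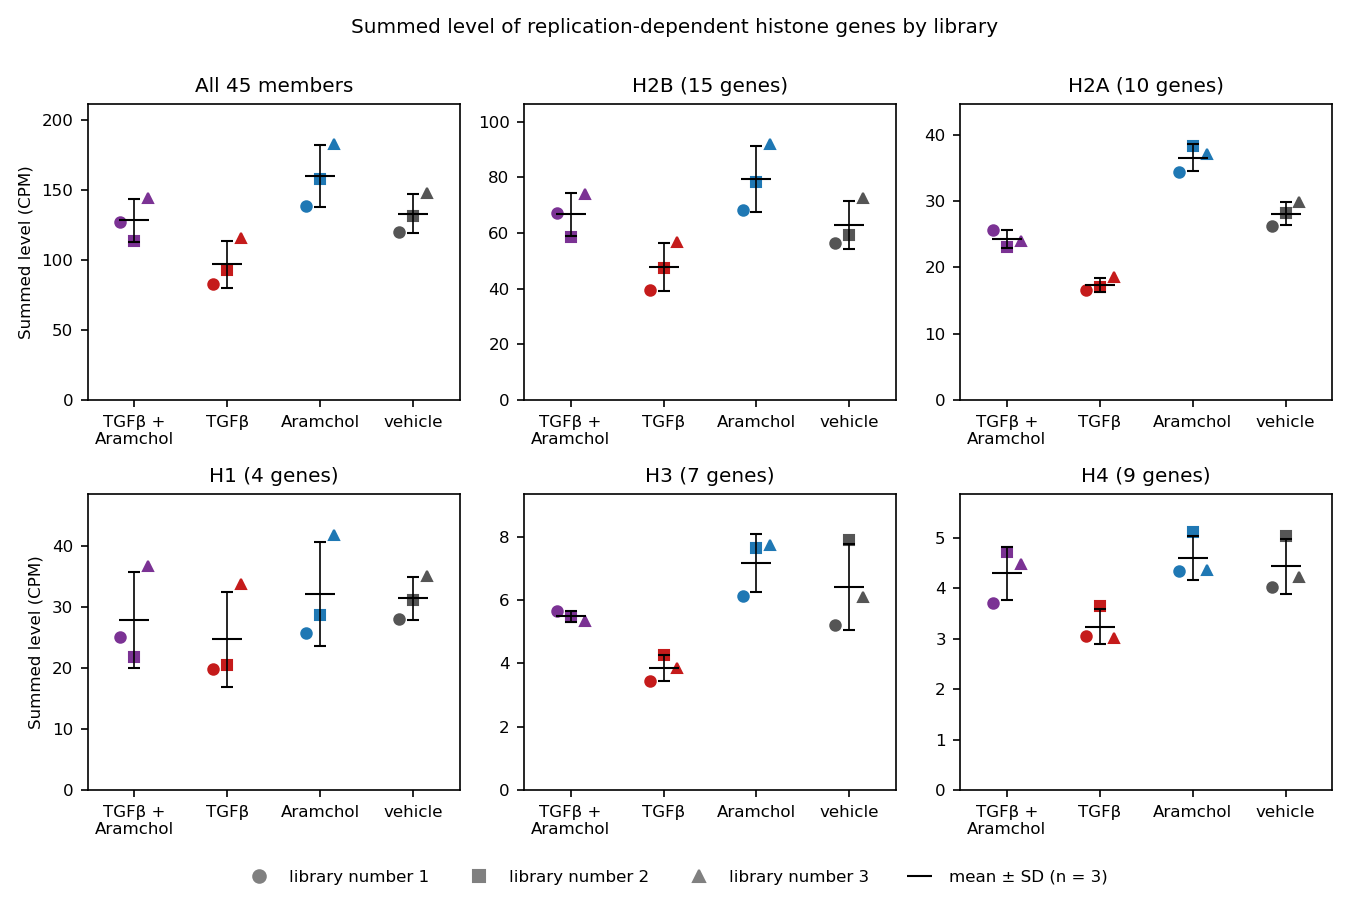
Summed CPM of all members and of each histone class in each of the 12 libraries (points shaped by library number; bars, mean ± SD of 3 libraries). The TGFβ libraries are the lowest in the H2A panel, at 16.6 to 18.5 CPM against 26.3 to 29.9 CPM with vehicle, and library 3 is the highest of each group in the H1 and H2B panels.

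TGFβ against vehicle shows the response to the cytokine. Of the 44 members tested, 15 fell and 0 rose (edgeR quasi-likelihood test, adjusted p under 0.05 after Benjamini-Hochberg adjustment over all genes tested). Over all 21567 genes tested, 18.1% fell and 18.9% rose. The member share of falls, 15 of 44, stands beside that background, and DESeq2 also called 15 lower and 0 higher. At an unadjusted p under 0.05, 0 members were higher and 23 lower, beside 4775 and 4933 of all genes. The median log2 fold change was -0.81 over the members and -0.03 over all genes, and 41 of 44 members were below 0. Members that met the minimum only through vehicle libraries are in these counts. Without vehicle 2 the median was -0.65, with 40 of 44 members below 0. It was -0.53 over the 13 members left by a stricter filter (a mean of 1 CPM), 12 of them below 0. In 22 of 44 members all 3 TGFβ libraries lay below all 3 vehicle libraries, as did 23.6% of all genes.

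By class, 4 of 9 H2A, 6 of 15 H2B, 3 of 7 H3, 1 of 4 H1 and 1 of 9 H4 genes fell. The change with the smallest p was in H2AC25 (ENSG00000181218, chr1:228434777-228457873, minus strand), an H2A gene outside the main cluster. H2AC25 stood at 2.37, 2.82 and 2.29 CPM in the TGFβ libraries, against 6.48, 6.88 and 5.72 CPM in the vehicle libraries. It stood at 3.13, 3.13 and 2.15 CPM in the TGFβ + Aramchol libraries and at 7.34, 7.43 and 5.47 CPM in the Aramchol libraries. All 6 libraries with TGFβ lay below all 6 without it. The log2 fold change of H2AC25 with TGFβ was -1.35 (SE 0.16, adjusted p = 7.95e-06, edgeR). The H2B gene H2BC26 (chr1:228458103-228463104, plus strand) lies head to head with H2AC25. H2BC26 split the libraries likewise, at 0.199 to 0.382 CPM with TGFβ and 0.402 to 0.793 CPM without, but was not called in TGFβ against vehicle.

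H2AC11 (chr6:27133043-27133535, plus strand), an H2A gene of the main cluster, fell by 1.42 on the log2 scale (SE 0.30, adjusted p = 0.00130, edgeR). It had 0.319, 0.580 and 0.345 CPM in the TGFβ libraries and 1.35, 1.10 and 0.906 CPM in the vehicle libraries, with no overlap. It had 0.786, 0.895 and 0.611 CPM with TGFβ + Aramchol and 0.676, 0.834 and 1.23 CPM with Aramchol. The H2B gene H2BC11, its head-to-head partner across the octamer shown above, fell by 0.81 (SE 0.18, adjusted p = 0.00258, edgeR). In the pair of H2AC6 and H2BC4 both genes fell as well, by 0.51 and 0.82 on the log2 scale. In the other 3 pairs 1 gene of each fell: H2BC21 by 0.54, H2AC8 by 0.81 and H2BC17 by 0.98. Their partners gave log2 fold changes of -0.23 for H2AC20, -0.82 for H2BC8 (adjusted p = 0.0695, edgeR) and -0.26 for H2AC17.

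The H4 gene H4C8 (ENSG00000158406, chr6:26277609-26285638, minus strand) was the only H4 member to fall, by 0.77 (SE 0.17, adjusted p = 0.00211, edgeR). The H2B gene H2BC15 fell by 0.84, and the H3 genes H3C3 by 0.95, H3C10 by 0.77 and H3C2 by 1.83. H4C16, the single member on chromosome 12, gave 0.02 (SE 0.20). The most abundant members did not pass. H2BC12 had 25.8, 31.0 and 40.3 CPM in the TGFβ libraries and 36.4, 35.9 and 48.7 CPM in the vehicle libraries, with a log2 fold change of -0.32 (SE 0.17, adjusted p = 0.153, edgeR). H1-2 had 19.4, 20.0 and 33.0 CPM with TGFβ and 26.7, 28.0 and 34.6 CPM with vehicle, with -0.31 (SE 0.22, adjusted p = 0.317, edgeR). In H2BC12 and H1-2 the groups overlapped and library 3 was the highest in each of the 4 groups, as in no other member. H2BC5, the second H2B gene by level, gave -0.14 (adjusted p = 0.290, edgeR).

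Several short, low members rest on vehicle library 2, which held the highest value of 19 of the 45 members and of 8.15% of all genes tested. Of those 19 members 17 were short. H1-4, a linker histone gene, had 11, 14 and 15 counts in the TGFβ libraries, and 37, 104 and 10 counts in vehicle libraries 1, 2 and 3. Its call with TGFβ (-1.83, adjusted p = 0.0342, edgeR) was lost without vehicle 2, when it was -0.66. The call of H3C2 was likewise lost without vehicle 2, when it was -1.04. Leaving out vehicle 2 brought the count of members that fell to 9, and the other 11 leave-outs gave 11 to 17. In all, 8 of the 15 calls held whichever library was left out: H2AC25, H2AC11, H4C8, H2BC11, H2AC6, H2BC21, H2BC15 and H2AC8. H3C3 was lost only without vehicle 2, H3C10 without TGFβ 1 or vehicle 2, H2BC17 without TGFβ 1, TGFβ 2 or vehicle 3, and H2BC4 without TGFβ 2, vehicle 2 or vehicle 3. H3C2 was also lost without TGFβ 1 or 3 and H1-4 without any 1 TGFβ library. H2BC7, which fell by 1.36, was lost in 9 of 12 leave-outs, and it met the count minimum only with the vehicle libraries.

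**Figure D3:**
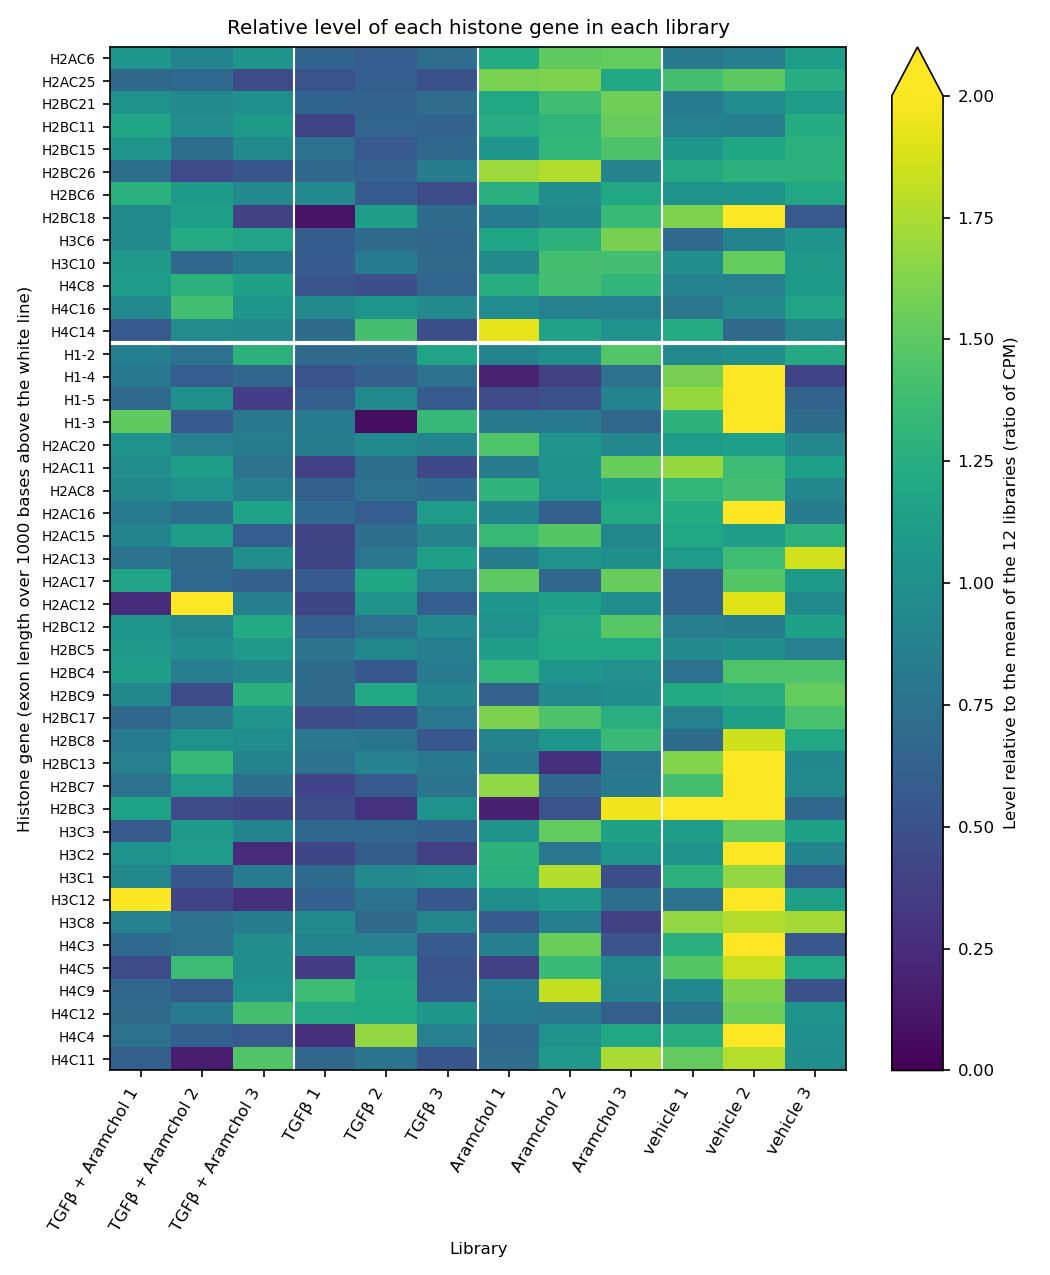
Level of each of the 45 members in each of the 12 libraries relative to its mean over the libraries (colour scale, ratio of CPM; rows, genes, long members above the white line; columns, libraries). The TGFβ columns are dark in most rows, and vehicle 2 is bright in the short rows, where it held the highest value of 17 of 32 members.

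TGFβ + Aramchol against TGFβ shows what Aramchol added to cells under the cytokine. Of the 44 members, 5 rose and 0 fell (edgeR; DESeq2 gave the same counts), where 0.890% of all genes tested rose and 1.36% fell. At an unadjusted p under 0.05, 9 members were higher and 0 lower, beside 1767 and 1938 of all genes. In 10 of 44 members all 3 TGFβ + Aramchol libraries lay above all 3 TGFβ libraries, as did 11.5% of all genes. The median log2 fold change was 0.31 over the members and -0.00069 over all genes, and without TGFβ 1 it was 0.18 over the members. All 5 called genes were among the 13 long members. None of the 31 short members tested was called by edgeR or DESeq2, and 3 of them were higher at an unadjusted p under 0.05. Of the 32 short members 27 averaged under 1 CPM, so the short group also had fewer counts, and the part of depth in this split was not tested.

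H4C8 rose 2.12-fold, a log2 change of 1.08 (SE 0.17, adjusted p = 0.00716, edgeR). It stood at 1.77, 2.07 and 1.85 CPM in the TGFβ + Aramchol libraries, against 0.856, 0.784 and 1.05 CPM in the TGFβ libraries. It stood at 2.01, 2.26 and 2.13 CPM in the Aramchol libraries and at 1.43, 1.40 and 1.75 CPM in the vehicle libraries. The 3 TGFβ libraries were below all 9 others, and the ranges of Aramchol and TGFβ + Aramchol overlapped. H2BC11 rose by 0.93 (SE 0.18, adjusted p = 0.0180, edgeR), with 5.30, 4.33 and 4.87 CPM in the TGFβ + Aramchol libraries and 1.83, 2.92 and 2.85 CPM in the TGFβ libraries. It had 5.57, 5.84 and 6.86 CPM with Aramchol and 3.91, 3.82 and 5.54 CPM with vehicle, so that the vehicle libraries overlapped with TGFβ + Aramchol and not with TGFβ.

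H2AC6 rose by 0.61 (SE 0.12, adjusted p = 0.0203, edgeR). Its levels were 18.0, 15.4 and 17.7 CPM in the TGFβ + Aramchol libraries and 11.1, 10.2 and 12.3 CPM in the TGFβ libraries. They were 21.1, 26.0 and 26.3 CPM in the Aramchol libraries and 13.9, 14.7 and 19.2 CPM in the vehicle libraries. The TGFβ libraries were the lowest 3 and the Aramchol libraries the highest 3 of the 12. The H2B gene H2BC21 rose by 0.58 and the H3 gene H3C6 by 0.78 on the log2 scale (adjusted p = 0.0339 and 0.0353, edgeR). H3C6 had 2.20, 2.87 and 2.73 CPM with TGFβ + Aramchol and 1.38, 1.62 and 1.54 CPM with TGFβ, and 2.76, 2.99 and 3.70 CPM with Aramchol and 1.63, 2.11 and 2.42 CPM with vehicle. H3C6 had not passed in TGFβ against vehicle (-0.44, adjusted p = 0.0684, edgeR). H2AC25, lowest with TGFβ, gave 0.16 (SE 0.17, adjusted p = 0.688, edgeR).

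The TGFβ libraries enter both TGFβ against vehicle and TGFβ + Aramchol against TGFβ, so low values in them move both comparisons. Against vehicle, which does not share them, TGFβ + Aramchol gave log2 fold changes of 0.31 (SE 0.16) for H4C8, 0.13 (SE 0.18) for H2BC11, 0.10 (SE 0.12) for H2AC6, 0.04 (SE 0.13) for H2BC21 and 0.34 (SE 0.17) for H3C6, with none past the threshold. These 5 members had been picked by their rise over TGFβ. Over all 44 tested members, 35 were below 0 in TGFβ + Aramchol against vehicle, with a median of -0.47. Over the 13 members left by the stricter filter (a mean of 1 CPM), 5 were below 0 and 8 above, with a median of 0.08. In TGFβ + Aramchol against TGFβ, the call of H4C8 held under each leave-out. The count of 5 dropped to 1 without TGFβ 1, TGFβ + Aramchol 1 or TGFβ + Aramchol 2, to 2 without TGFβ 2, and to 3 without TGFβ 3, TGFβ + Aramchol 3 or Aramchol 2. Calls over all genes fell as well in most of these: against 192 higher and 294 lower with all libraries, they were 33 and 75 without TGFβ 1, 25 and 30 without TGFβ + Aramchol 1, 22 and 42 without TGFβ + Aramchol 2, and 42 and 55 without TGFβ 2. They were 45 and 83 without TGFβ 3 and 104 and 187 without Aramchol 2, but 225 and 332 without TGFβ + Aramchol 3.

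**Figure D4:**
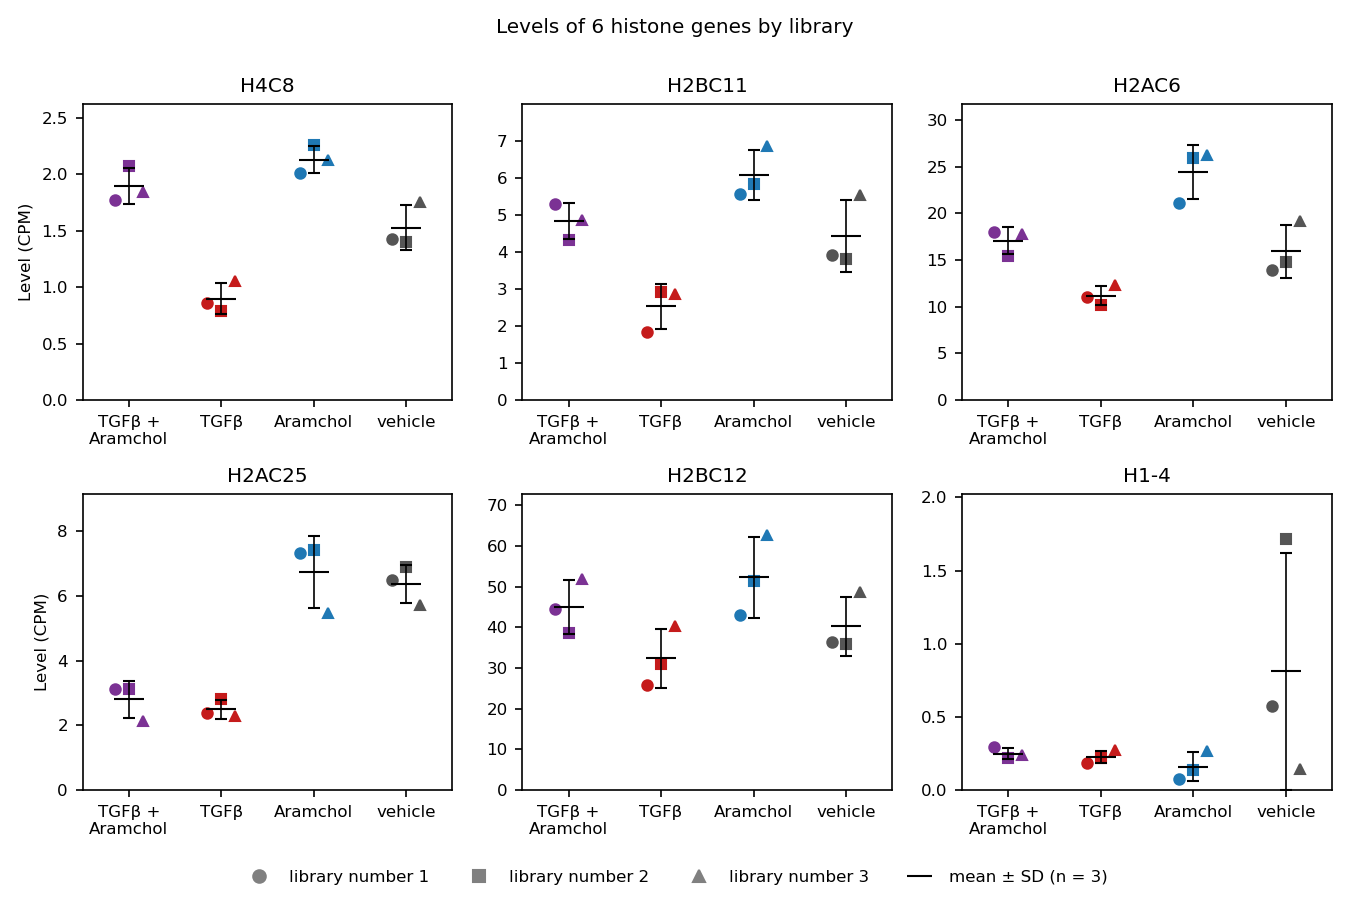
CPM of 6 members in each library (points shaped by library number; bars, mean ± SD of 3 libraries). H4C8, H2BC11 and H2AC6 are lowest in the 3 TGFβ libraries, H2AC25 is lower in all 6 libraries with TGFβ, H2BC12 is highest in library 3 of each group, and H1-4 rests on vehicle 2.

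Aramchol against vehicle shows the compound without the cytokine. H2AC6 rose by 0.62 (SE 0.12, adjusted p = 0.0452, edgeR), and 0 members fell. Of all genes 0.236% rose and 0.121% fell (51 and 26 genes, but 37 and 38 with upper quartile scaling). DESeq2 called 3 members higher and 0 lower, and at an unadjusted p under 0.05 edgeR gave 7 higher and 4 lower, beside 1185 and 1348 of all genes. The call of H2AC6 held in 1 of 12 leave-outs, the one without vehicle 3, when 4 members were called higher and 2 lower, and 222 and 389 of 22263 genes. Without any other library, in any of the 4 groups, no member was called. Of the 13 long members, 11 had log2 fold changes above 0, with a median of 0.21, and H3C6 gave 0.62 (SE 0.17), H2BC21 0.52 (SE 0.13) and H4C8 0.48 (SE 0.16) without passing. Of the 31 short members tested, 23 were below 0, with a median of -0.52. Members that met the count minimum only through vehicle libraries are among these short members. Over the 13 members left by the stricter filter (a mean of 1 CPM), 2 were below 0 and 11 above, with a median of 0.31. Of the short members over 1 CPM, H2BC12, H2BC5, H1-2 and H2AC20 averaged higher with Aramchol than with vehicle, and H2BC4 lower. The part of level in the split by length was not tested. Over all 44 members 25 were below 0 and 19 above, with a median of -0.09, but without vehicle 2 it was 18 below and 26 above, with a median of 0.04. Among them H1-4 gave -2.29 (SE 0.66, adjusted p = 0.173, edgeR), with 4, 10 and 18 counts in the Aramchol libraries against the 37, 104 and 10 of vehicle. The 27 short members under 1 CPM summed to 8.33, 9.27 and 9.37 CPM with Aramchol and 10.9, 16.6 and 9.35 CPM with vehicle, so vehicle 2 stands highest there too.

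**Figure D5:**
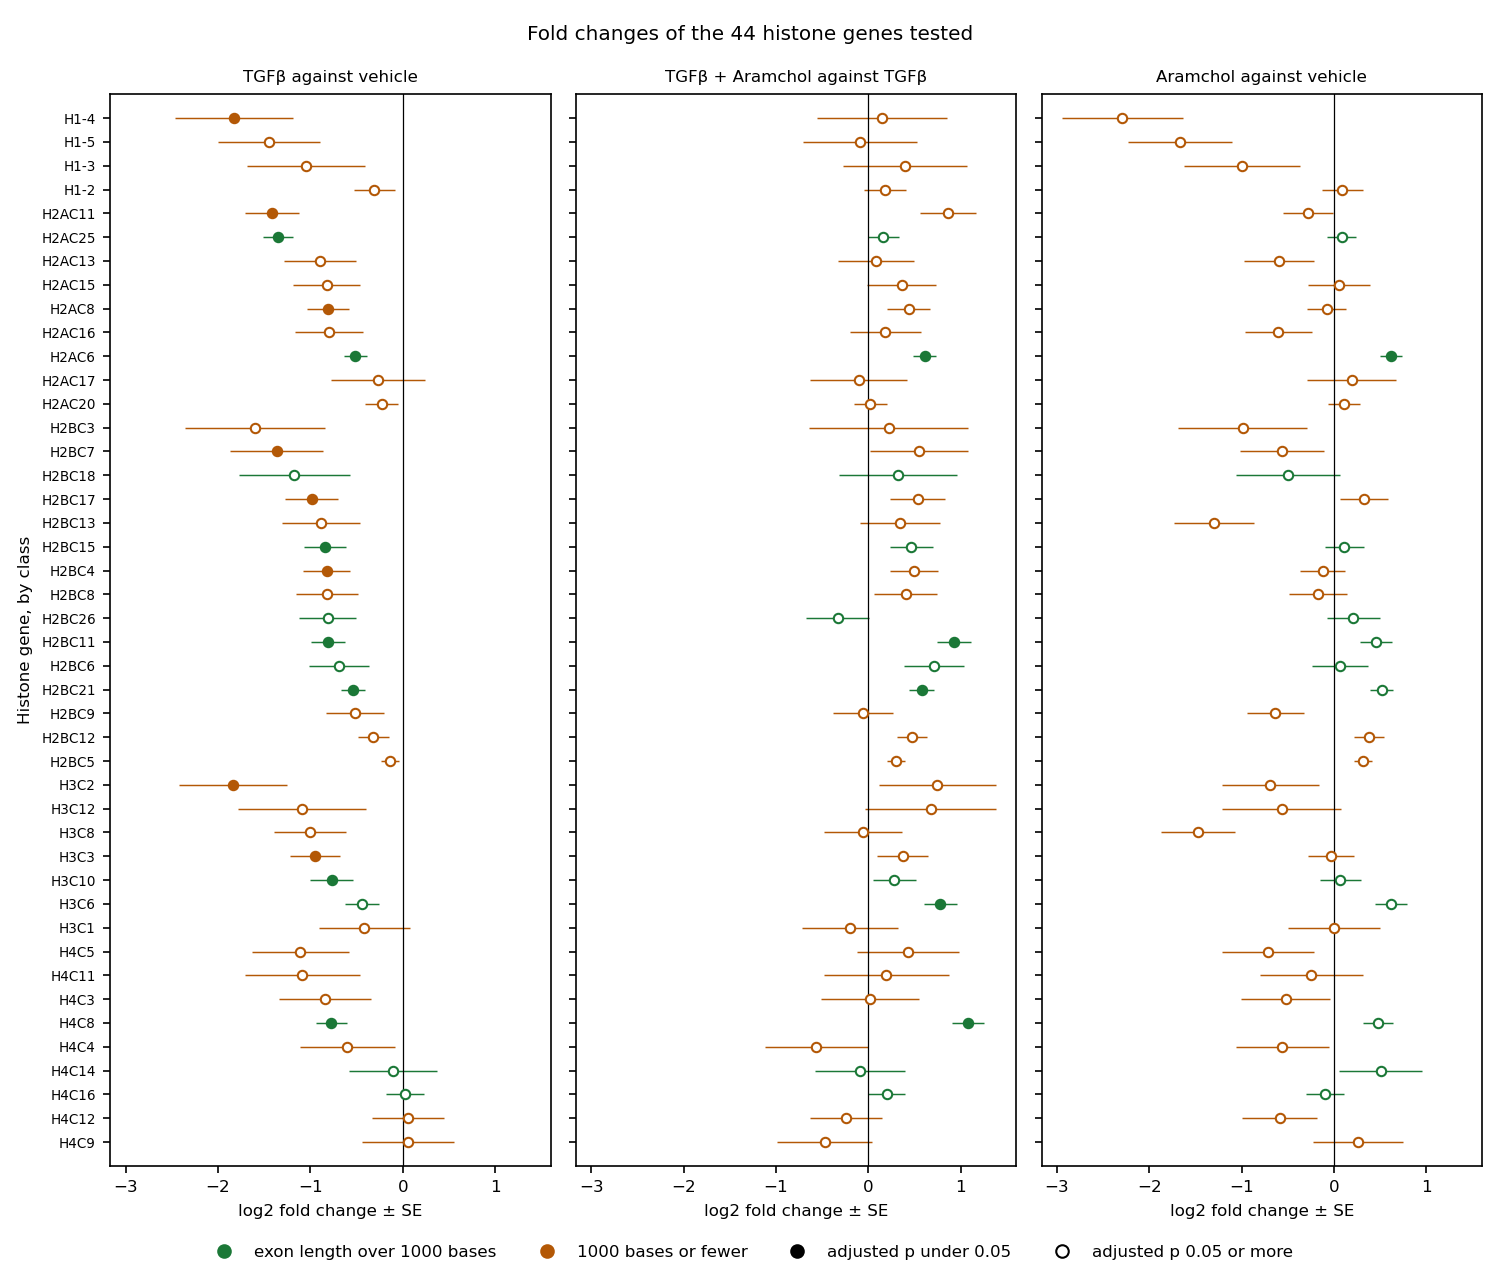
Log2 fold change ± SE of the 44 tested members in 3 comparisons (x axis; rows, genes by class; green, long members; orange, short members; filled, adjusted p under 0.05 by edgeR). With TGFβ 41 of 44 members lie below 0, in TGFβ + Aramchol against TGFβ the 5 filled points are all long members, and in Aramchol against vehicle only H2AC6 is filled.

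TGFβ + Aramchol against Aramchol gives the cytokine response in the presence of Aramchol. Of 44 members 5 fell and 0 rose (edgeR and DESeq2), where 14.2% of all genes fell and 16.0% rose. At an unadjusted p under 0.05, 7 were lower and 0 higher, beside 4125 and 4351 of all genes. The members that fell were H2AC25 by 1.27 (adjusted p = 1.71e-05), H2BC26 by 1.35, H2BC17 by 0.77, H2AC6 by 0.52 and H2BC21 by 0.48 on the log2 scale (edgeR). All but H2BC17 held in each leave-out. H2BC17 was lost without TGFβ + Aramchol 1 or 2, Aramchol 1 or 2, or vehicle 2.

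In TGFβ + Aramchol against vehicle 5 members fell and 0 rose by edgeR, beside 17.0% and 18.2% of all genes. The median log2 fold change was -0.47 over the members and -0.02 over all genes, and 35 of 44 members were below 0. Of the 31 short members 29 were below 0 (median -0.58), and of the 13 long members 6 (median 0.02). The short members include H2BC3, H2BC7, H3C8, H3C12 and H4C11, which met the count minimum only with vehicle libraries. Their falls against vehicle, and so part of this split, are partly set by the rule. Without vehicle 2 the median over the members was -0.28. Over the 13 members left by the stricter filter (a mean of 1 CPM) it was 0.08, with 5 below 0 and 8 above. At an unadjusted p under 0.05, 8 were lower and 0 higher, beside 4625 and 4743 of all genes, and DESeq2 called 4 lower and 0 higher. H2AC25 fell by 1.18 (adjusted p = 3.16e-05) and H2BC26 by 1.15 (adjusted p = 0.0102), and both calls held in each leave-out (edgeR). The other 3, H1-4 (-1.68), H1-5 (-1.54) and H3C8 (-1.06), are low members, and H3C8 met the count minimum only with the vehicle libraries. Without vehicle 2, H1-4 and H1-5 gave -0.51 and -0.77 and lost their calls, as did H3C8 in each leave-out. The count was 2 without TGFβ 1, TGFβ 2, Aramchol 2 or vehicle 2, 3 without TGFβ + Aramchol 2, TGFβ + Aramchol 3, TGFβ 3, Aramchol 1 or vehicle 1, and 4 or 5 without the others.

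Whether Aramchol altered the TGFβ response was tested as an interaction, the response to TGFβ with Aramchol minus that without. It called 0 of 44 members (edgeR and DESeq2), beside 0.0139% of all genes by edgeR. At an unadjusted p under 0.05, 5 members were above 0 and 0 below, beside 539 and 598 of all genes. Whatever their p, 35 of 44 members were above 0, as were 51.5% of all genes. The median log2 difference was 0.46 over the members and 0.006 over all genes, and 0.33 over the members without vehicle 2. Over the 13 members left by the stricter filter (a mean of 1 CPM) it was 0.11, with 2 below 0 and 11 above. This common direction was not tested. The smallest p was that of H2AC11, with a log2 difference of 1.15 (SE 0.41, adjusted p = 0.898, edgeR), and H4C8 gave 0.60 (SE 0.23, adjusted p = 0.918, edgeR). A difference in the members' response to TGFβ with Aramchol was therefore not shown, and a p that misses the threshold does not show that the responses were alike.

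Factors that transcribe histone genes and process or degrade their mRNA were listed as 22 genes. With TGFβ 7 of them rose and 0 fell against vehicle by edgeR, 8 rose and 0 fell by DESeq2, and 8 were higher and 1 lower at an unadjusted p under 0.05. With upper quartile scaling 4 rose and 1 fell. Beside these, 18.9% of all genes tested rose and 18.1% fell by edgeR, and upper quartile scaling gave 3601 higher and 4553 lower. POU2F1, the octamer-binding factor Oct-1, rose by 0.28 (adjusted p = 0.00307, edgeR). UPF1, a helicase needed for histone mRNA decay, rose by 0.18 and NCBP1, a subunit of the cap-binding complex, by 0.18. SLBP averaged 93.7 ± 5.24 CPM with TGFβ and 94.6 ± 3.22 CPM with vehicle, with a log2 fold change of -0.01 (SE 0.05, adjusted p = 0.878, edgeR). NPAT averaged 43.1 ± 2.93 CPM with TGFβ and 42.7 ± 3.03 CPM with vehicle, with 0.01 (SE 0.07, adjusted p = 0.909, edgeR).

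Of 43 genes of DNA replication and S phase, 4 rose and 14 fell with TGFβ (3 and 18 with upper quartile scaling). The shares over all genes tested, 18.9% higher and 18.1% lower, stand beside these and the list counts below. Upper quartile scaling also moved the calls over all genes, to 3601 higher and 4553 lower. The activating E2F gene E2F2 fell by 1.83 and the replication licensing factor gene CDT1 by 0.61, while the cyclin E gene CCNE1 rose by 0.66 on the log2 scale. Of 11 histone variants outside the replication-dependent set 2 rose and 5 fell, among them the linker histone H1-10 (-0.55) and the centromeric H3 variant CENPA (-0.54). Of 23 histone chaperones 3 rose and 7 fell (3 and 4 by DESeq2), with NAP1L1 at 0.47, the CENPA chaperone HJURP at -0.38 and CABIN1, of the H3.3 chaperone complex, at -0.33. In TGFβ + Aramchol against TGFβ, E2F2 rose by 0.41, E2F1 by 0.24 and CENPA by 0.33 (adjusted p = 0.0181, 0.0324 and 0.0317, edgeR), and no other gene of the 4 lists was called by edgeR. In Aramchol against vehicle 0 genes of the 4 lists were called by edgeR and 1, of the S phase list, by DESeq2, with 6 higher and 2 lower at an unadjusted p under 0.05.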

How the data were processed

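RNA of H69 cells was extracted with Trizol and made into libraries with the 2S Plus DNA library kit of IDT, per the labels' protocols. The submitters' processing notes name STAR 2.7.9a, the GRCh38 build, featureCounts of Subread and DESeq2. The deposited table holds unscaled read counts of each gene in 12 libraries, and 0 columns of samples were left out. Not given in the sources used here: RNA selection, strand setting, annotation release and how reads matching several genes were handled. Reads carried no molecular identifiers that the sources name, so counting error is the least error of a count. No 2 libraries of a group were duplicates (chi-square per degree of freedom 4.16 or more).

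Of 62703 gene IDs 62625 had a symbol. The 21567 genes passing filterByExpr entered edgeR 4.0.16 (R 4.3.3; limma 3.58.1) with TMM scaling, whose factors ran from 0.930 to 1.09. Its quasi-likelihood test used all 12 libraries and a mean for each group, with a biological coefficient of variation of 8.90%. Calls needed an adjusted p (Benjamini-Hochberg, over all genes tested) under 0.05 in each of 6 contrasts, and a count of members was read against the same count over all genes. CPM used TMM-scaled library sizes, and CPM per kb the exon length of the table. Medians, sums and lists were given no test. The procedure was tested on simulated data.

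The members, lists, tests and alternatives were chosen with earlier results of these data known. Named were all called members up to 12 by smallest p per contrast, the 2 highest of each class, and of 4 gene lists the 3 called genes of smallest p plus SLBP and NPAT; some genes of the lists are not reported here. Single members beyond this rule (H3C2, H2BC7, H2BC8, H2AC17, H2AC20 and others named for a pair, a leave-out or the count minimum) were named after their values were seen. The alternatives were scaling by RLE or upper quartile, dropping the filter, a stricter one (10 counts in 3 libraries and a mean of 1 CPM), DESeq2 1.42.0, a replicate block, a term for libraries numbered 3, the libraries numbered 1 and 2 alone, only the groups compared, and each library left out. RefSeq promoters and GENCODE v29 transcripts were searched with Python 3.11.15. The 23 genes under the minimum were not tested as members.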

Additional observations from a re-analysis of the deposited data

How the results depend on the processing

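No call of a named member changed direction under any alternative: of 637 values 529 stayed called in the same direction and 108 lost the call. Of the 31 calls, 15 held in all leave-outs and 14 in all alternatives. With the stricter filter, which left 13 members, 7 were called in TGFβ against vehicle, 3 in TGFβ + Aramchol against Aramchol and 1 in TGFβ + Aramchol against vehicle. In Aramchol against vehicle the count of 1 became 0 with upper quartile scaling or only the 2 groups compared, 5 without a filter, 3 with DESeq2, 4 with the replicate block, 4 with a term for number 3 and 8 from the libraries numbered 1 and 2. Over all genes the calls there, 51 higher and 26 lower, became 267 and 264 without a filter, 213 and 186 with DESeq2, 261 and 203 with the block, 295 and 243 with the term and 704 and 840 from those libraries. The term for number 3 gave 8 in TGFβ + Aramchol against Aramchol, and the 2 groups alone gave 2 in TGFβ + Aramchol against vehicle. The interaction gave 1 without a filter and 1 from the libraries numbered 1 and 2. The cause of these shifts was not tested, other than fewer genes or libraries entering.

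Leaving out 1 library gave 9 to 17 calls in TGFβ against vehicle, 0 to 6 in Aramchol against vehicle, 1 to 5 in TGFβ + Aramchol against TGFβ, 4 to 5 against Aramchol, 2 to 5 against vehicle and 0 to 0 in the interaction. Whether the library number pairs the samples is not given in the labels, and the main test left the number out. Between groups, deviations from the group means of libraries with the same number correlated at 0.00739 to 0.221, all above 0. Those of libraries with different numbers correlated at -0.146 to 0.0907. These values do not settle whether the samples were paired. With the replicate block 19 members were called in TGFβ against vehicle, 6 in TGFβ + Aramchol against TGFβ, 7 against Aramchol, 4 against vehicle (1 higher, 3 lower) and 0 in the interaction. Over all genes the block moved calls from 4070 higher and 3908 lower to 4581 and 4509 in TGFβ against vehicle, and from 192 and 294 to 644 and 875 in TGFβ + Aramchol against TGFβ. Against Aramchol it moved them from 3450 and 3064 to 4021 and 3674, and against vehicle from 3928 and 3665 to 4500 and 4209. Each library numbered 3 correlated best with the libraries of that number in the other groups, and those numbered 1 and 2 did not all do so, a hint from the data and not the design. The 27 short members under 1 CPM summed to 5.54 to 16.6 CPM per library, and the part of depth in their calls was not tested.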

Other observations

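Vehicle 2 held the highest value of 42.2% of the members against 8.15% of all genes tested, and the 27 short members under 1 CPM summed there to 16.6 CPM, against 5.54 to 10.9 CPM in the other 11 libraries. The 23 genes under the minimum, which entered no comparison, were also highest there, at 2.11 CPM in sum against 0.345 to 1.05 CPM in the other 11 libraries. The group mean was lowest with TGFβ for 32 of the 45 members (71.1%) and for 30.7% of all genes tested. It was highest with Aramchol for 11 of the 13 long members, beside 23.6% of all genes tested. The mean was highest with vehicle for 23 of the 32 short members, beside 28.1% of all genes tested. Among those 23 are H2AC12, H2BC3, H2BC7, H3C8, H3C12 and H4C11, which met the count minimum only with vehicle libraries. Their place is therefore partly set by the rule. These are values, and no test was made of them.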
